A study of Mus musculus with 3 samples.

Results

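The transcripts of the mitochondrial genome were examined in 3 RNA-seq libraries of mouse blood monocytes. Members were chosen by gene symbol: the 37 genes whose symbol begins with mt- and the nuclear pseudogene Gm28661, a copy of mt-Co2, which makes 38 of 55536 genes in the gene tables. The 37 mitochondrial genes were 13 mRNA genes, 2 rRNA genes and 22 tRNA genes. The libraries came from adult C57BL/6J mice (5 to 6 weeks), were made from 100 ng of rRNA-depleted total RNA, and are numbered 1, 2 and 3 as biological replicates in the labels. They form 1 group with no comparison group, and the labels name no treatment, transgene or altered allele. The gate of the cell isolation and the sex of the mice are not given. All 3 libraries carry 1 donor record, and p-values cover only how these libraries vary, part of which can be technical.

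Mitochondria keep a small circular genome of their own. Both strands are transcribed into long precursors, and tRNAs that stand between the other genes are cut out of them, which releases rRNAs and mRNAs. All of its mRNAs encode subunits of respiratory complexes I, III, IV and V, while the polymerase, the RNA processing enzymes and the ribosomal proteins are imported products of nuclear genes. Pieces of mitochondrial DNA have also been inserted into nuclear chromosomes, and reads from such copies cannot be told from mitochondrial reads where the sequence is the same.

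The gene tables held 27.2, 26.5 and 19.9 M expected counts in libraries 1, 2 and 3. An expected count is the estimated number of reads of a gene, and TPM is the same quantity per base of effective length, scaled to a fixed total per library. Of 10 monocyte markers, 10 had 1 TPM or more in every library, and their summed TPM was 2550, 2157 and 1551 in libraries 1, 2 and 3. Summed TPM of red cell markers was 3556, 3344 and 266, of NK cell markers 636, 535 and 1532, of neutrophil markers 141, 126 and 9.44, and of platelet markers 15.4, 11.6 and 100.4 in libraries 1, 2 and 3. The NK cell list had 8 of 8 members at 1 TPM or more in every library, the red cell list 6 of 8, the platelet list 4 of 8 and the neutrophil list 1 of 8, with Ly6g and Camp at 0. Library 3 thus stood apart from the other 2 in these lists. The red cell sum exceeded the monocyte sum in libraries 1 and 2, and the NK cell sum was close to it in library 3. Sums of different lists do not give shares of cells, and the levels below are those of the whole RNA. In bulk RNA, fewer cells of a type and less RNA per cell cannot be told apart.

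Most counts of several mitochondrial mRNAs stood on nuclear rows. A sequence search found 11 nuclear pseudogenes, Gm28661 among them, with 95% or more identity to a mitochondrial gene over 80% or more of their own length. Of these, 7 lie in a single stretch of chromosome 1 on the minus strand (chr1:24611535-24616197, mm10) and follow the gene order of the mitochondrial genome from the end of mt-Co1 to mt-Nd4. Over the aligned bases, 5 of the 7 are identical to the mitochondrial gene, and Gm28438 (copy of mt-Nd3) and Gm29216 (copy of the last part of mt-Co1) differ at 1 base each. The ends of 4 pairs are shown because they are where the annotated copy and the mitochondrial gene part: the capitals mark the last bases of the mitochondrial gene that the annotated copy lacks.
mt-Co2 end (chrM:7667-7696, plus strand): ttcgaaaactgatctgcttcaataattTAA
Gm28661 end (chr1:24614885-24614911, minus strand): ttcgaaaactgatctgcttcaataatt
mt-Co3 end (chrM:9361-9390, plus strand): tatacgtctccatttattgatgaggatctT
Gm28437 end (chr1:24613189-24613217, minus strand): tatacgtctccatttattgatgaggatct
mt-Atp6 end (chrM:8578-8607, plus strand): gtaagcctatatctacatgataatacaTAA
Gm10925 end (chr1:24613974-24614000, minus strand): gtaagcctatatctacatgataataca
mt-Nd4l end (chrM:10144-10173, plus strand): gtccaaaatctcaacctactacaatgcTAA
Gm10222 end (chr1:24612407-24612433, minus strand): gtccaaaatctcaacctactacaatgc

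The 2 chromosome 1 copies that carry a mismatch are shown with the matching window of the mitochondrial gene, the differing base in capitals. Counted from base 1 of the mitochondrial gene, the substitutions from gene to copy are T3C for mt-Nd3 and Gm28438 and A1066T for mt-Co1 and Gm29216.
mt-Nd3 window (chrM:9459-9476, plus strand): atTaacctgtacactgtt
Gm28438 window (chr1:24613102-24613119, minus strand): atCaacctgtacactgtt
mt-Co1 window (chrM:6390-6408, plus strand): ggaAttgttttatccaact
Gm29216 window (chr1:24616170-24616188, minus strand): ggaTttgttttatccaact

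Gm28661 (ENSMUSG00000102070.1, chr1:24614885-24615565, an unprocessed pseudogene) held 19191, 28607 and 8460 expected counts in libraries 1, 2 and 3. The row of mt-Co2 itself (ENSMUSG00000064354.1, chrM:7013-7696) held 0.01, 0.68 and 0.01 counts. The copy, identical over its 681 bases, thus carried nearly the whole signal of the cytochrome c oxidase subunit in all 3 libraries. Gm28437 held 28611, 42959 and 13487 counts against 6.98, 7.68 and 2.44 on the row of mt-Co3, another subunit of cytochrome c oxidase. These divisions were made by the authors' quantification of reads that fit both rows.

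Other pairs were divided differently from library to library. Of the counts of mt-Atp6, a subunit of ATP synthase, Gm10925 held 64.0% in library 3 and all in libraries 1 and 2. For mt-Nd4l, a complex I subunit, Gm10222 held 36.1% in library 2 and all in libraries 1 and 3. Gm28438 held 27.9% of the counts of mt-Nd3, a complex I subunit, in library 3 and none in libraries 1 and 2. Gm29216 held 9.75%, 11.2% and 3.91% of the counts of mt-Co1, the catalytic subunit of cytochrome c oxidase, and Gm28439, the copy of mt-Nd4, had no counts. The copies outside chromosome 1 held little: Gm13341 on chromosome 2 had 30.1, 3.16 and 3.08 counts of mt-Co2 and Gm13340 had 7.16, 42.1 and 8.15 of mt-Co1, while Gm13339 (mt-Nd2, chromosome 2) and Gm4076 (mt-Nd5, chromosome 13) had none.

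The division also depended on the table. With GENCODE M4 in place of M21, Gm28661 held 88.9%, 97.0% and 94.4% of the mt-Co2 counts, and in the transcript table it held 99.1%, 99.0% and 96.4%. For mt-Co3 the copy's share was 91.9%, 83.6% and 93.8% with M4 and 35.5%, 76.4% and 79.5% in the transcript table. For mt-Atp6 it was 60.4%, 34.9% and 0.411% in the transcript table, and for mt-Nd4l the copy's share there was at most 6.65e-05%. The sum of gene and copies did not move with the annotation, since the ratio of M4 to M21 was 1.00 in all 39 values (13 mRNAs in 3 libraries). The transcript table gave summed counts 1.07 to 1.46 times those of the M21 gene table (median 1.14). It also held more counts in all, 35.7, 32.9 and 24.9 M in libraries 1, 2 and 3. As a share of all counts the 13 mRNAs held 0.635% ± 0.183 there and 0.697% ± 0.189 in the M21 gene table (mean, SD, n = 3). Counts of copies were therefore added to their mitochondrial gene before genes were compared, and such a sum, with the effective length of the mitochondrial gene, is what each symbol stands for from here on.

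**Figure D1:**
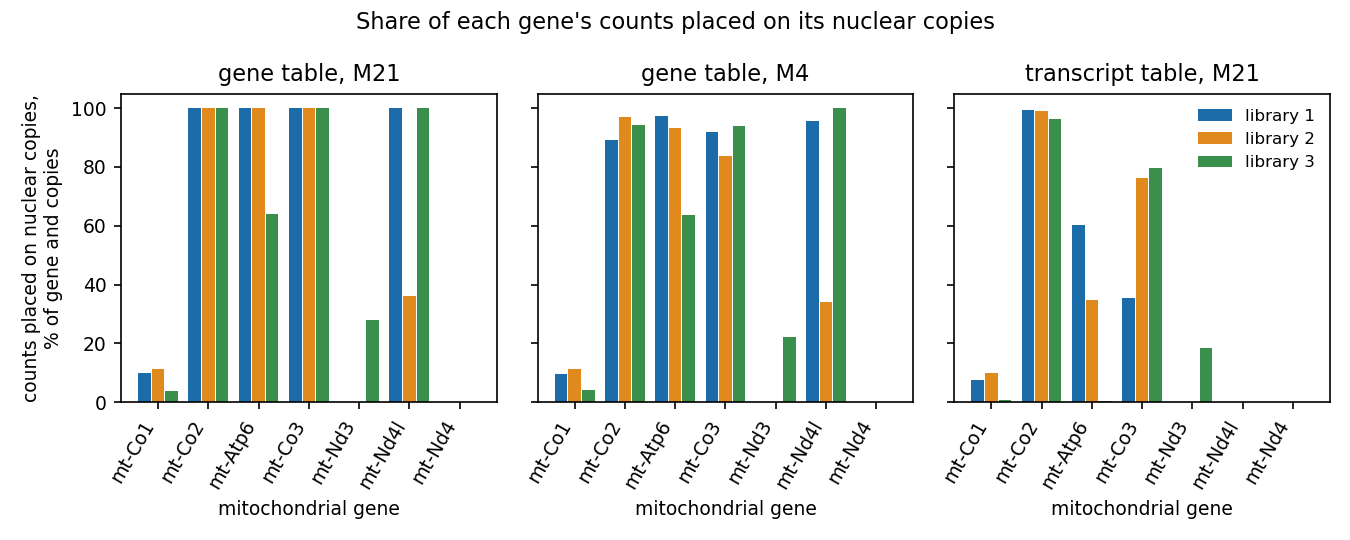
Bars give the percent of the expected or estimated counts of a mitochondrial gene and its nuclear copies that was placed on the copies (vertical axis, %), for the 7 mRNA genes with a copy on chromosome 1 (horizontal axis), by library (colour) and table (panel). The bars of mt-Co2 stand above 88.9% in every panel, while those of mt-Co3, mt-Atp6 and mt-Nd4l change with the library or the table.

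All 13 mRNAs and both rRNAs lay above 1 TPM, 15 of the 15 mitochondrial genes that could be tested (edgeR quasi-likelihood test, adjusted p under 0.05, all genes tested together). Of all 17671 genes tested, 43.2% lay above 1 TPM and 6.37% below it. The 22 tRNAs have an effective length of 0 in the gene tables and were not tested. Most TPM of these tables stood on rows of other kinds, since protein-coding genes and mitochondrial genes together held at most 11.2% of TPM in any library. On a scale of those genes alone every value would be 3.16, 3.32 and 3.20 higher (log2), and the 15 genes were above 1 TPM on that scale too.

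The 3 mRNAs of cytochrome c oxidase, complex IV, were among the 4 highest mRNAs. mt-Co1 (ENSMUSG00000064351.1, chrM:5328-6872) had 523, 608 and 591 TPM in libraries 1, 2 and 3, a mean of 574 ± 44.9 (SD, n = 3; edgeR adjusted p = 2e-18). mt-Co3 (ENSMUSG00000064358.1, chrM:8607-9390) had 419, 569 and 297 TPM, a mean of 428 ± 136 (SD, n = 3; edgeR adjusted p = 1.86e-16). mt-Co2, which carries the copper centre that takes electrons from cytochrome c, had 336, 451 and 224 TPM, a mean of 337 ± 114 (SD, n = 3; edgeR adjusted p = 7.87e-16). mt-Co1 was nearly level across libraries, whereas mt-Co2 and mt-Co3 were highest in library 2 and lowest in library 3. By mean TPM, 8 of 22015 nuclear protein-coding genes stood above mt-Co1, 11 above mt-Co3 and 17 above mt-Co2.

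The mRNAs of ATP synthase, complex V, come from overlapping reading frames of the same transcript. mt-Atp8 (ENSMUSG00000064356.3, chrM:7766-7969) had 689, 1172 and 422 TPM, the highest mean of the 13 at 761 ± 380 (SD, n = 3; edgeR adjusted p = 1.63e-15). mt-Atp6 (ENSMUSG00000064357.1, chrM:7927-8607) had 161, 212 and 166 TPM, a mean of 180 ± 28.2 (SD, n = 3; edgeR adjusted p = 2.58e-15). The values of mt-Atp8 thus spread most among the 13 mRNAs, and every library placed it above mt-Atp6. mt-Cytb (ENSMUSG00000064370.1, chrM:14145-15288), cytochrome b and the mitochondrial subunit of complex III, had 52.2, 91.2 and 47.2 TPM, a mean of 63.6 ± 24.1 (SD, n = 3; edgeR adjusted p = 1.03e-12).

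The mRNAs of complex I, the NADH dehydrogenase, covered a wide range. mt-Nd3 (chrM:9459-9806) had 274, 391 and 157 TPM, a mean of 274 ± 117 (SD, n = 3). mt-Nd1 (chrM:2751-3707) had 92.4, 121 and 85.6 TPM, a mean of 99.7 ± 18.7 (SD, n = 3). These 2 were the highest of the 7 complex I mRNAs. mt-Nd4l (chrM:9877-10173) had 64.1, 52.6 and 44.0 TPM and mt-Nd4 (chrM:10167-11544) 40.8, 42.7 and 37.7 TPM. mt-Nd2 (chrM:3914-4951) had 32.5, 45.1 and 28.3 TPM. mt-Nd4 varied least of the 13 mRNAs, with a coefficient of variation of 6.21%, against 50.0% for mt-Atp8. mt-Nd5 (chrM:11742-13565) had 12.6, 13.4 and 17.0 TPM, the only mRNA with its highest value in library 3. mt-Nd6 (chrM:13552-14070), the only mRNA encoded on the light strand, was lowest at 7.41, 10.7 and 6.36 TPM, a mean of 8.17 ± 2.29 (SD, n = 3; edgeR adjusted p = 3.06e-07).

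In the order of mean TPM, 5 of 12 neighbouring pairs differed beyond their spread, taken as the same direction in 3 of 3 libraries and a mean log2 difference over 2 SD. These were mt-Co3 over mt-Co2 (0.35 ± 0.05, log2), mt-Co2 over mt-Nd3 (0.34 ± 0.16), mt-Atp6 over mt-Nd1 (0.86 ± 0.08), mt-Nd1 over mt-Cytb (0.70 ± 0.25) and mt-Nd2 over mt-Nd5 (1.28 ± 0.51; SD, n = 3 each). The other 7 pairs did not, among them mt-Atp8 over mt-Co1 (0.29 ± 0.72) and mt-Nd5 over mt-Nd6 (0.83 ± 0.55). On counts per annotated base, which divide by the whole length of the gene, mt-Co1 came first, ahead of mt-Co3, mt-Co2 and mt-Atp8 in that order. On that scale mt-Nd5 over mt-Nd6 did differ beyond the spread (1.28 ± 0.59, log2, SD, n = 3).

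**Figure D2:**
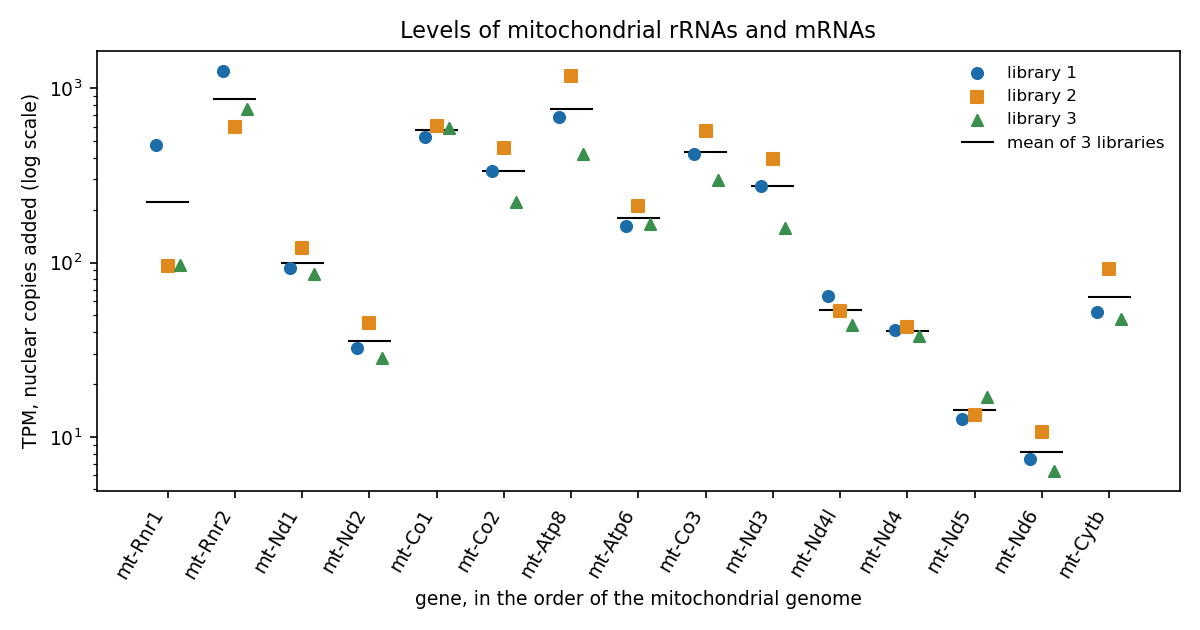
Points give TPM with nuclear copies added (vertical axis, log scale) of the 2 rRNAs and 13 mRNAs in each of 3 libraries, in genome order from left to right, and lines give the mean of 3 libraries. Levels run from 8.17 TPM on average for mt-Nd6 to 873 for mt-Rnr2, and mt-Rnr1 is set apart by the value of library 1.

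Complex IV mRNAs held 74.4%, 72.0% and 76.3% of the counts of the 13 mRNAs in libraries 1, 2 and 3. Complex I mRNAs held 14.9%, 14.8% and 13.7%, complex V 7.40%, 8.66% and 6.87%, and complex III 3.30%, 4.51% and 3.16%. On the log2(TPM + 0.1) scale the mean of the 3 complex IV mRNAs lay 2.93, 3.09 and 2.85 above that of the 6 heavy-strand complex I mRNAs. The mean difference was 2.96 ± 0.12 (log2, SD, n = 3) or 7.76-fold, higher in 3 of 3 libraries (exact two-sided sign-flip test, p = 0.25, the smallest that 3 libraries allow). It rested on the added copies: with the rows as deposited the difference was -3.60 ± 0.94, and with only Gm28661 added it was 0.27 ± 0.83.

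The light-strand mRNA mt-Nd6 lay below the mean of the 12 heavy-strand mRNAs by a log2 difference of -4.03, -3.86 and -3.99 in libraries 1, 2 and 3. The mean was -3.96 ± 0.09 (SD, n = 3), 15.6-fold lower in 3 of 3 libraries (exact two-sided sign-flip test, p = 0.25, the smallest possible here). With the rows as deposited it was -0.88 ± 0.40, and with only Gm28661 added -1.85 ± 0.38. The library kit marks the strand, but no source used here gives the strand setting of the counting, so reads of mt-Nd6 and of the heavy-strand RNA opposite it may not have been told apart.

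The overlap of the ATP synthase genes is shown because counts of the shared stretch can go to either gene. The 43 bases in capitals belong to the reading frames of both mt-Atp8, which they end, and mt-Atp6, which they begin.
mt-Atp8 end and mt-Atp6 start (chrM:7907-7989, plus strand): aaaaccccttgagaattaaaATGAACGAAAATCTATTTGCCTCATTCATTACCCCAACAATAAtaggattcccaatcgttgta

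mt-Atp8 exceeded mt-Atp6 by 2.09, 2.46 and 1.35 on the log2(TPM + 0.1) scale. The mean was 1.97 ± 0.57 (SD, n = 3) or 3.91-fold, in 3 of 3 libraries (exact two-sided sign-flip test, p = 0.25, the smallest possible here). Per annotated base the mean difference was 0.23 ± 0.76, and the ratio of mt-Atp8 to mt-Atp6 was 1.31, 1.87 and 0.661. The scales parted because the effective length of mt-Atp8 was 22.7%, 25.8% and 18.9% of its 204 annotated bases, against 74.2%, 76.2% and 72.7% of 681 bases for mt-Atp6. mt-Nd4l and mt-Nd4, which share 7 bases of another transcript, behaved alike in kind: the ratio of mt-Nd4l to mt-Nd4 was 1.57, 1.23 and 1.17 in TPM and 0.760, 0.644 and 0.524 in counts per annotated base. Levels of the shortest mRNAs relative to longer ones therefore depended on the length used.

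The 13 mRNAs together held 0.635%, 0.909% and 0.546% of all counts in libraries 1, 2 and 3, a mean of 0.697% ± 0.189 (SD, n = 3). Exact binomial 95% intervals of these shares were 0.632 to 0.638, 0.905 to 0.912 and 0.543 to 0.549, and cover counting error only. The share without the nuclear rows was 0.393%, 0.544% and 0.399%, and the 11 copies held the remaining 0.242%, 0.365% and 0.147%. In TPM over protein-coding and mitochondrial genes alone the 13 mRNAs made up 2.42%, 3.77% and 1.95%. Library 2 was highest and library 3 lowest in the share with copies and in TPM, but library 1 was lowest without the nuclear rows.

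Differences between libraries were taken for each mRNA as a log2 TPM difference less that of the median protein-coding gene, and describe these libraries only. Library 2 lay above library 1 for 12 of 13 mRNAs (median 0.58, range -0.12 to 0.96), the exception being mt-Nd4l. Library 3 lay below library 2 for 13 of 13 (median -1.04, range -1.84 to -0.03) and below library 1 for 12 of 13 (median -0.41, range -1.02 to 0.22), the exception being mt-Nd5. The last median was -0.20 on TPM as deposited and -0.22 when only genes of 10 TPM or more set the centre.

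By median, short mRNAs were lower in library 3 by more than long ones, though the ranges overlapped. The 7 mRNAs under 900 bases had a median of -0.75 against library 1 and -1.31 against library 2, and the 6 longer ones -0.32 and -0.71. Against library 1 the short mRNAs ran from -1.02 to -0.17 and the longer ones from -0.41 to 0.22. Against library 2 these ranges were -1.84 to -0.63 and -1.32 to -0.03. There the short mt-Nd4l (-0.63) fell by less than the longer mt-Cytb (-1.32). Between library 2 and library 1 the medians were 0.60 and 0.46. Pearson's r with log2 length was 0.82 for library 3 minus 1, 0.66 for 3 minus 2 and -0.17 for 2 minus 1, over 13 genes that share 1 genome, the same precursor RNAs and the same libraries, so these values are a description. Nuclear protein-coding genes of 10 TPM or more ordered by length in the same way in library 3: against library 1 their median was -0.49 under 500 bases (n = 38), -0.43 from 500 to 900 (n = 270), -0.28 from 900 to 2000 (n = 811) and -0.05 from 2000 bases (n = 947). Against library 2 these medians were -0.43, -0.46, -0.27 and -0.05, and between libraries 2 and 1 they lay from -0.03 to 0. Recorded fragment sizes began at 200 bp in each library and reached 1000 bp in library 3, 594 bp in library 1 and 491 bp in library 2. Blood cell markers also moved with library 3, as given above, and the part of fragment size and of other cells in these differences was not tested.

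**Figure D3:**
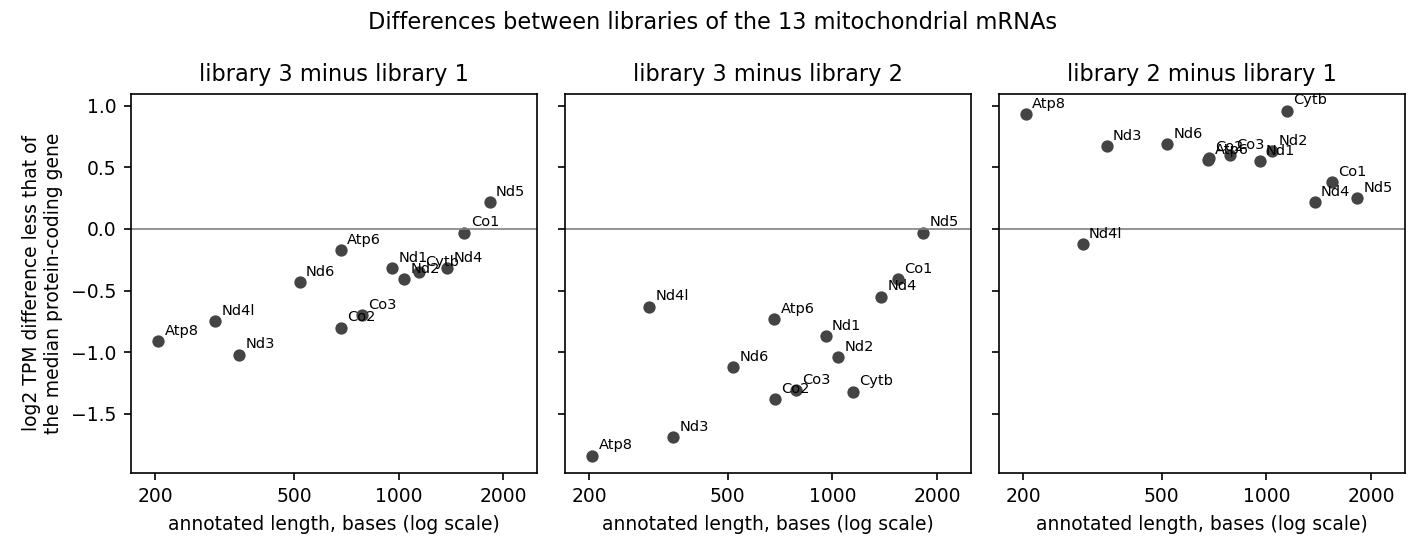
Each point is 1 of the 13 mitochondrial mRNAs, placed by annotated length in bases (horizontal axis, log scale) and by the log2 TPM difference between 2 libraries less that of the median protein-coding gene (vertical axis). In both panels with library 3 the shortest mRNA, mt-Atp8, lies near the lower end (-0.91 and -1.84) and the longest, mt-Nd5, at the upper end (0.22 and -0.03), while the panel of libraries 2 and 1 shows no such order.

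The 2 rRNAs, the RNA core of the mitochondrial ribosome, followed another order than the mRNAs. mt-Rnr2 (ENSMUSG00000064339.1, chrM:1094-2675), the large subunit rRNA, had 1260.5, 602 and 756 TPM, a mean of 873 ± 344 (SD, n = 3; edgeR adjusted p = 8.05e-18). mt-Rnr1 (ENSMUSG00000064337.1, chrM:70-1024), the small subunit rRNA, had 472, 95.4 and 97.3 TPM, a mean of 221 ± 217 (SD, n = 3; edgeR adjusted p = 7.01e-13). Both were highest in library 1, and mt-Rnr1 stood close together in libraries 2 and 3. Relative to the median protein-coding gene, mt-Rnr1 differed by -2.14 in library 2 and -2.48 in library 3 from library 1, and mt-Rnr2 by -0.90 and -0.95 (log2). The ratio of mt-Rnr1 to mt-Rnr2 was 0.374, 0.158 and 0.129 in TPM. Counts of both rRNAs were 1.39, 0.469 and 0.790 times those of the 13 mRNAs. These libraries were depleted of rRNA. Genes annotated as nuclear rRNA held 1.17%, 0.811% and 0.0318% of counts, and the 2 mitochondrial rRNAs 0.886%, 0.426% and 0.431%. Both shares were highest in library 1. From library 2 to library 3 the nuclear share was far lower, while the mitochondrial share was nearly the same. The level left by depletion and the level in the cells cannot be told apart.

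The transcript table, unlike the gene tables, gave counts for tRNAs, and most of them fell on 1 gene in each library. mt-Tg, the glycine tRNA, is shown with 20 bases on each side because it joins mt-Co3 before it and mt-Nd3 after it with no base between. The capitals mark the tRNA.
mt-Tg with its neighbours (chrM:9371-9478, plus strand): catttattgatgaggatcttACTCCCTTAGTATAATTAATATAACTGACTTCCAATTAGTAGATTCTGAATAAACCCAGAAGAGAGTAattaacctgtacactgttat

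mt-Tg (ENSMUSG00000064359.1, chrM:9391-9458) had 10458, 14721 and 163 estimated counts in libraries 1, 2 and 3. This was 96.0%, 95.7% and 60.6% of the counts of the 22 tRNAs. As counts per M of the transcript table it was 293, 448 and 6.56, so that libraries 1 and 2 held 44.6 and 68.3 times the value of library 3. The neighbours differed far less: for mt-Co3 the same ratios were 1.54 and 2.43, and for mt-Nd3 1.96 and 3.39. The other 21 tRNAs together had 440, 657 and 106 counts, 2.89 and 4.68 times the value of library 3 per M counts. The large gap of library 3 was thus not shared by the genes on either side or by the sum of the other tRNAs. Single tRNAs of few counts differed from that sum. In libraries 1, 2 and 3 mt-Tk had 48, 35 and 3 counts, mt-Tt 13, 34 and 1, and mt-Tp 15, 48 and 0. By contrast, mt-Ty had 21, 14 and 11 counts and mt-Tf 10, 2 and 7. The recorded fragment size range of library 3 was also the widest, and the part of size selection was not tested.

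Of the 22 tRNAs, 13 had counts above 0 in every library, and 1, mt-Ts2, had none. After mt-Tg the highest summed counts were those of mt-Th (259), mt-Tv (212), mt-Tw (138), mt-Tn (135), mt-Tk (86), mt-Tm (79) and mt-Tp (63). These carry histidine, valine, tryptophan, asparagine, lysine, methionine and proline. mt-Tt (48), mt-Ty (46), mt-Ti (24), mt-Tl2 (24), mt-Tl1 (20), mt-Tf (19) and mt-Tc (14) also reached 10 counts, and the remaining 6 tRNAs with counts had fewer. All 24 counts of mt-Ti came from library 2. The counts do not tell mature tRNAs from tRNAs still joined to their neighbours in a precursor.

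**Figure D4:**
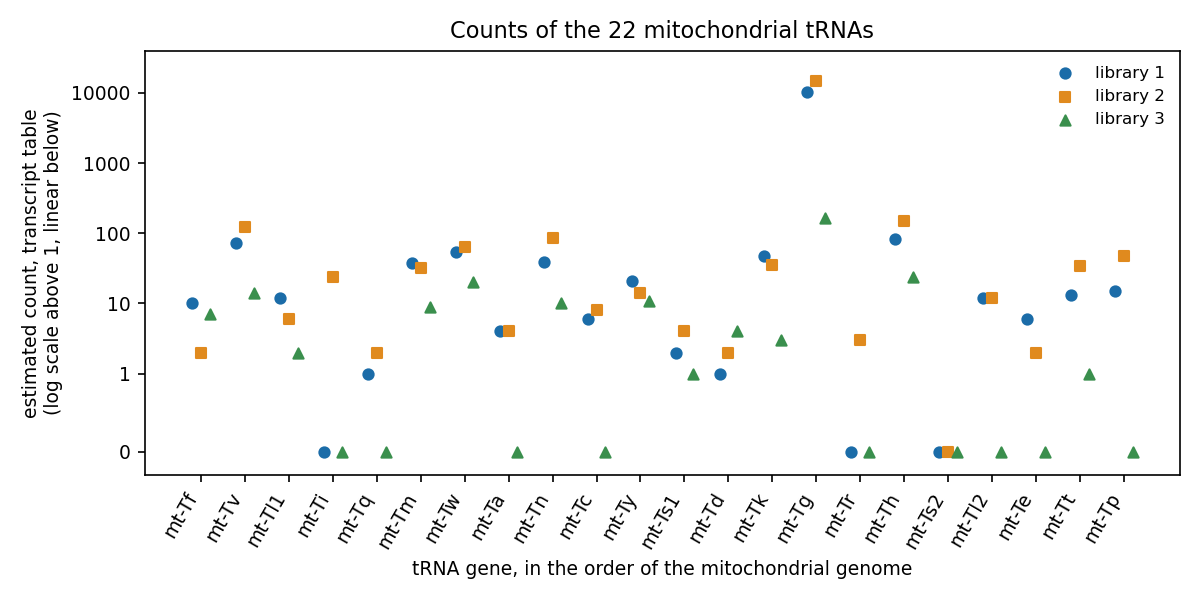
Points give the estimated count of each of the 22 mitochondrial tRNAs in the transcript table (vertical axis, log scale above 1 and linear below it) for 3 libraries, in genome order. mt-Tg stands at 10458 and 14721 counts in libraries 1 and 2 and at 163 in library 3, and no other tRNA exceeds 151 in any library.

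A list of 59 nuclear genes covered the transcription and replication of mitochondrial DNA, the processing, stability and decay of its RNA, and regulators of nuclear mitochondrial genes. Of these, 35 were called above 1 TPM and 1 was called below it, while 23 were not called (edgeR, adjusted p under 0.05). The share above was 59.3%, against 43.2% of all genes tested and 54.0% of nuclear protein-coding genes. Their median of 1.98 TPM was close to that of nuclear protein-coding genes, 2.08, and stood against 1.18 for all genes tested. By role, 5 of 9 transcription genes, 3 of 7 replication genes, 16 of 27 processing genes, 6 of 8 stability and decay genes and 5 of 8 regulators of nuclear mitochondrial genes lay above. With DESeq2 the count above was 19, or 32.2%, close to the 32.0% of all genes tested and below the 39.7% of nuclear protein-coding genes under that tool. Against nuclear protein-coding genes, the share of the list was thus slightly higher with edgeR and lower with DESeq2. No trait of the list is read from it. On TPM over protein-coding and mitochondrial genes alone 56 of the 59 were above (94.9%), against 68.2% of all genes and 78.6% of nuclear protein-coding genes.

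Within the core transcription set, Tfam, which packs mitochondrial DNA and opens its promoters, was highest of the whole list at 14.1, 8.34 and 7.82 TPM, a mean of 10.1 ± 3.46 (SD, n = 3; edgeR adjusted p = 1e-08). Tfb2m, which melts the promoter with the polymerase, had 3.54 ± 0.775 TPM (SD, n = 3; edgeR adjusted p = 2.03e-05). Polrmt, the mitochondrial RNA polymerase, had 1.09, 0.783 and 1.64 TPM and was not called (edgeR adjusted p = 0.542). Tefm, its elongation factor, had 0.658 ± 0.388 TPM (SD, n = 3) and was also not called (edgeR adjusted p = 0.378). On the scale of protein-coding and mitochondrial genes alone Polrmt and Tefm were above 1 TPM.

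Other high members were Gabpa, a factor that drives nuclear respiratory genes (8.72 ± 0.889 TPM), Polg, the DNA polymerase of mitochondria (8.71 ± 1.15), and Ptcd3, which binds the small ribosomal subunit (8.36 ± 2.23; SD, n = 3 each). Nrf1, a factor of nuclear respiratory genes, had 7.81 ± 2.90 TPM, the exonuclease gene Rexo2 7.80 ± 0.909, and Grsf1, a protein of RNA granules, 7.40 ± 1.38 (SD, n = 3 each). Slirp and Lrpprc, which form a complex that stabilises mitochondrial mRNAs, had 7.26 ± 1.09 and 3.48 ± 0.683 TPM (SD, n = 3 each). All of these lay above 1 TPM. Ppargc1a, the coactivator PGC-1 alpha, was the member below at 0.0352, 0.0719 and 0.133 TPM (edgeR adjusted p = 0.0272). That call was lost with any library left out (edgeR adjusted p = 0.059 to 0.294) and with DESeq2 (adjusted p = 0.311). It was also lost with M4 (edgeR adjusted p = 0.0584), against 0.5 TPM (0.0687) and on the scale of protein-coding and mitochondrial genes alone (0.728). The call was kept with limma and in the transcript table (edgeR adjusted p = 0.04). Its relative Ppargc1b was at 0, 0 and 0.118 TPM and not called (edgeR adjusted p = 0.15).

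Of 78 genes of mitochondrial ribosomal proteins, 59 were called above 1 TPM and 19 were not called. The share above was 75.6% against 54.0% of nuclear protein-coding genes. Their median was 3.29 TPM, and Mrps21 (29.9), Mrpl33 (20.7) and Mrpl24 (15.5) had the highest means. With DESeq2 38 of the 78 were above (48.7%), against 39.7% of nuclear protein-coding genes and 32.0% of all genes under that tool. The median of the 13 mitochondrial mRNAs was 99.7 TPM.

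**Figure D5:**
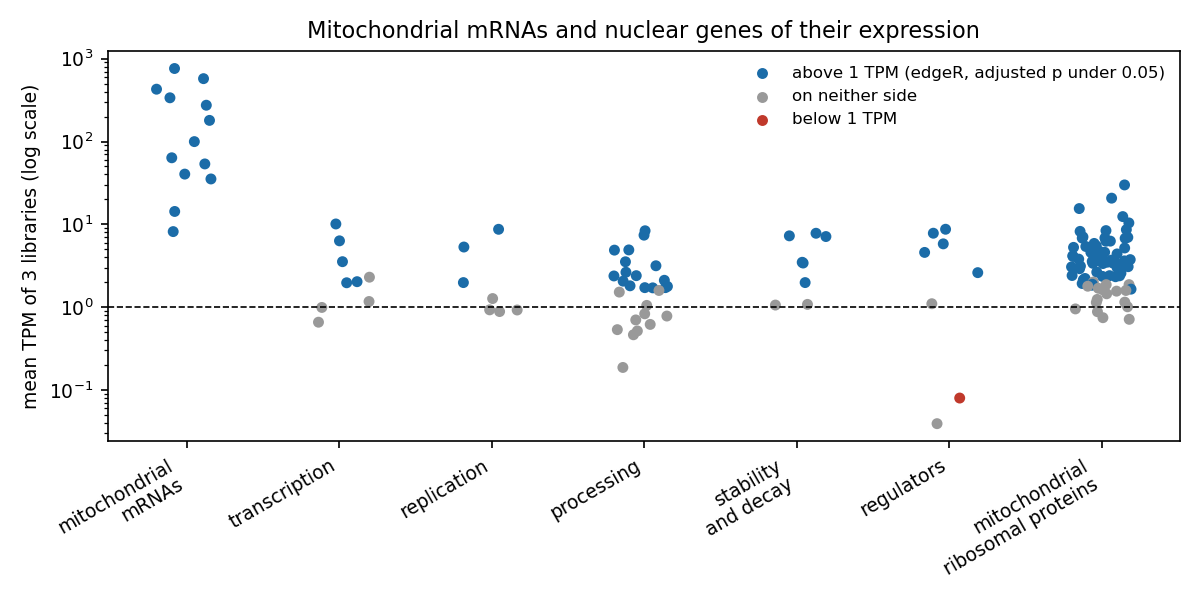
Each point is a gene, placed by its mean TPM over 3 libraries (vertical axis, log scale) within the 13 mitochondrial mRNAs, the 5 roles of the maintenance list or the mitochondrial ribosomal proteins (horizontal axis, with sideways scatter for legibility), and coloured by the edgeR call against 1 TPM. The mRNAs lie from 8.17 to 761 TPM, and the highest gene of the maintenance list lies at 10.1.

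The mean profile of the 13 mRNAs over libraries 1, 2 and 3, as log2(TPM + 0.1) less each gene's mean, was -0.04, 0.33 and -0.29. Among 2066 nuclear protein-coding genes of 10 TPM or more the nearest by distance were the ribosomal protein gene Rps28 (106, 139 and 91.4 TPM, distance 0.030), Wtap (0.032), Ctsa (0.048), Hypk (0.059) and Ddx1 (0.060). With 3 points per gene this is a description without a test.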

How the data were processed

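Total RNA of 3 libraries of mouse blood monocytes was quantified by the authors on mm10 with GENCODE M21 and again with M4, per the accompanying notes. The programs and the strand setting are not named there. Per gene the authors deposited an effective length and an expected count, which need not be whole because reads that fit several genes were divided. TPM values were scaled by the authors over every row of a table, as deposited. The deposited transcript table holds estimated counts and TPM by transcript. Rows that name no gene held at most 0.000571% of counts and stayed out of the tests.

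Nuclear copies were found with BLAST+ 2.17.0 (95% identity over 80% of the copy) and added to their gene; printed sequences are GENCODE M21 transcripts. Expected counts were rounded and fitted with edgeR 4.0.16 (intercept only, offset set to the count that 1 TPM stands for, 112, 121 and 76.0 counts for 1000 bases in libraries 1, 2 and 3). F was computed from the deviances of that fit, because the tool's function takes no design of 1 column. Genes with 10 or more summed counts were tested, with Benjamini-Hochberg adjustment at 0.05. Tested on simulated data for 17004 genes with a common dispersion of 0.619, the fit called 4% of genes set at 1 TPM and recovered 76% of those at 4 TPM and 100% at 16 TPM. Every simulated gene had that same dispersion, so these rates do not cover genes that differ in dispersion, as real genes can. Differences within a library used log2(TPM + 0.1). DESeq2 1.42.0, limma 3.58.1, other scalings, filters, tables and left-out libraries were alternatives. Each library was counted as a replicate because the labels number them as biological replicates. No pair agreed within sampling noise (chi-square per degree of freedom 42.4 to 154.7), a check for a library deposited more than once, which does not show that they came from separate animals.

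Every member is accounted for. Genes and copies of 10 or more counts, the 8 highest of the maintenance list, its member called below 1 TPM, the core transcription set, Lrpprc and Slirp are named, and the 3 ribosomal protein genes of highest mean were named after their values were seen. Of the maintenance list, Prorp was matched by an older symbol. Members and lists were chosen with earlier results of these data known.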

Additional observations from a re-analysis of the deposited data

Results flagged for a closer look

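The tRNA counts stand outside the gene tables, which list these genes at 0, and were above the limit of 3 counts in every library for 7 tRNAs. Summed over 3 libraries the transcript table gave 25342 counts for mt-Tg, 259 for mt-Th, 212 for mt-Tv, 138 for mt-Tw, 135 for mt-Tn, 79 for mt-Tm and 46 for mt-Ty. No control sample exists for these values.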

How the results depend on the processing

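No paired analysis was possible because the series holds 1 group. Without adding copies, complex IV minus complex I was -3.60 (reversed), mt-Nd6 minus the other mRNAs -0.88, mt-Atp8 minus mt-Atp6 9.70, the mRNA share 0.445% and mt-Co3 -3.57 (log2 level, adjusted p = 0.245). With only Gm28661 added the same 3 differences were 0.27, -1.85 and 9.70. In both settings the 9.70 had an SD of 5.97 (n = 3), since the row of mt-Atp6 alone had 0, 0 and 59.65 TPM in libraries 1, 2 and 3. Rows at or near 0 TPM, among them that of mt-Co3, took their log2 value in these differences largely from the pseudocount of 0.1. Per annotated base, complex IV minus complex I was 3.16 and mt-Atp8 minus mt-Atp6 0.23. mt-Nd6 gave -3.83 with a pseudocount of 1 and -3.75 in the transcript table. The mRNA share was 0.901% of counts of protein-coding and mitochondrial genes. Mitochondrial genes above 1 TPM numbered 25 of 30 tested in the transcript table, tRNAs included, and 13 of 14 without adding copies. Among all genes tested, 10150 of 25019 lay above in the transcript table and 7638 of 17678 without adding copies. The maintenance list had 19 above with DESeq2 (32.2%, against 32.0% of all genes, 5650 in number) and 56 on the protein-coding scale, where Tefm was 2.65. Its count below, 1, was 0 with DESeq2, on that scale and against 0.5 TPM, 3 and 6 with limma (pseudocounts 0.1 and 1), and 0 to 1 with a library left out (0 without library 1 or 2). With M4 and without library 3 the count stayed at 1, but Ppargc1a was not the gene called. Ribosomal proteins above were 38 with DESeq2. Of all genes, 1126 lay below 1 TPM, against 227 with DESeq2, 6322 and 6757 with limma, 176 against 0.5 TPM, 257 without library 1, 385 without library 2 and 1 on the protein-coding scale, where 12047 lay above in place of 7636. The differences between libraries moved by less than the SD over the 13 mRNAs under each alternative. Apart from effects of construction, the causes of these changes were not tested.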
